A study of Rattus norvegicus with 60 samples.

Results

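Genes of cell division and DNA replication were followed in rat liver over a dose series of an aromatic amine and its N-dimethylated relative. The set was a list of 40 gene symbols: replicative helicase subunits and enzymes of nucleotide supply, cyclins, mitotic kinases, kinetochore and spindle proteins, partners of the anaphase-promoting complex, and the chromosome proteins Mki67 and Top2a. A gene was measured where at least 1 probe set carried exactly 1 symbol and that symbol was on the list, and where several did, the probe set with the highest mean over all 60 arrays stood for the gene. This gave 37 of the 40 genes, out of 14217 genes in all. Tpx2, Rrm2 and Ndc80 had no such probe set and are not analysed here.

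The study dosed male F344/N rats, 5 to 6 weeks old at the start and kept 2 to a cage, by gavage in corn oil on 5 consecutive days with either N,N-dimethyl-p-toluidine (DMPT) or p-toluidine, which carries a primary amine where DMPT carries a dimethylated one. Each chemical had its own corn oil vehicle group and groups at 1, 6, 20, 60 and 120 mg/kg per day, with 5 arrays in each of the 12 groups. The treatment protocol spells out this dose series for DMPT, and the p-toluidine doses come from the sample labels. RNA came from flash-frozen pieces of the left lateral liver lobe, was labelled with biotin, and was hybridised to Affymetrix arrays. Arrays are numbered 1 to 5 within a group as in the labels, and values are listed in that order. The labels name no batch and no animal for an array, so a p-value here reflects the spread among arrays of a group, whatever their source.

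Before a cell divides, its genome is copied once. The helicase made of Mcm2 to Mcm7 is loaded on DNA in G1 and unwinds it in S phase, with Pcna as the clamp that holds the polymerases. Cyclins then switch on Cdk1, mitotic kinases order spindle assembly, and the anaphase-promoting complex ends mitosis by marking cyclins for destruction. Adult hepatocytes mostly rest outside the cycle and can re-enter it after tissue loss or exposure to a mitogen, so transcripts of S phase and mitosis are low in resting liver. In whole tissue, a change in how many cells are cycling and a change in RNA per cell cannot be told apart.

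The deposited values behaved as log2 signals and ranged from 0.0507 to 13.9. Array medians were 3.53 to 3.61 for DMPT and 2.73 to 2.81 for p-toluidine, so the chemicals were apparently normalised separately, and levels are compared here only within a chemical. The tissue label was checked against 9 hepatocyte markers, each of which stood at or above percentile 94.5 of all genes. A gene was called where limma's moderated test gave a p of at most 0.05 once adjusted by Benjamini-Hochberg over 31042 probe sets. Several arrays lay apart from their groups for these genes. The first DMPT vehicle array had a mean over the 37 genes 0.51 below its group's mean on the log2 scale, while the other 4 ran from -0.04 to 0.21. Arrays numbered 1 were also the lowest of their DMPT groups at 1 and 6 mg/kg, at -0.81 and -1.03 relative to the vehicle mean. The fifth p-toluidine vehicle array lay at -0.63, while the other 4 ran from -0.22 to 0.51. The third p-toluidine array at 60 mg/kg lay at -0.35 relative to the vehicle mean, while its 4 companions ran from 0.45 to 0.72. Counts of called or separate genes that move without the first DMPT vehicle array, or without this last one, are given both ways.

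Motifs that cell cycle genes are known to share were looked up in the promoters, because the set moved largely together between arrays. RefSeq promoter windows of build GRCr8, from 250 bases before to 50 after the first listed start, matched 31 of the 37 genes by gene ID. The motifs, searched on both strands, were the cell cycle genes homology region (CHR, TTTGAA or TTCGAA), the CCAAT box and an E2F sequence (TTCGCGC or TTGGCGC), and matches of different motifs may overlap. The stretches shown are the 100 bases before the start, on the gene's strand, with every match that lies wholly within the stretch, on either strand, in capitals, so that a reverse CCAAT box reads ATTGG. They were picked to show helicase genes beside mitotic genes. Mcm6 lies at chr13:42404353-42404452 on the minus strand, Mcm7 at chr12:22163179-22163278 on the minus strand, and Cdk1 at chr20:19265193-19265292 on the plus strand. Cdc20 lies at chr5:137255800-137255899, Mki67 at chr1:199952594-199952693 and Top2a at chr10:84473094-84473193, all on the minus strand.
Mcm6: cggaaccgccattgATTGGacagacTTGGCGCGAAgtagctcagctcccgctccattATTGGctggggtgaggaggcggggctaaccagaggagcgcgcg
Mcm7: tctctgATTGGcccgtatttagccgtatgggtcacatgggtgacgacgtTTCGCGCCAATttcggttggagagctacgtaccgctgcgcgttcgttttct
Cdk1: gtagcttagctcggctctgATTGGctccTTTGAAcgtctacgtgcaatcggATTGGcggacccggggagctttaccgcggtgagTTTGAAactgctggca
Cdc20: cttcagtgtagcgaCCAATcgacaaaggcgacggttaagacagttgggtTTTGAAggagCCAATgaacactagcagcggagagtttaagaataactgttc
Mki67: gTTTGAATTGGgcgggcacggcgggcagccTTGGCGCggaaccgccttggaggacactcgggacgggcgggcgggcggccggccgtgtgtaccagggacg
Top2a: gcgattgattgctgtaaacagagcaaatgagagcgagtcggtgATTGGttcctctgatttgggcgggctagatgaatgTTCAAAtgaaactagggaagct

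Over the whole 300-base windows, the E2F letters stood 5 times in Mcm6, 2 times each in Mcm7 and Cdk1, 1 time in Mki67 and 0 times in Cdc20 and Top2a. Overlapping matches were counted separately, and 1 match of Mcm6 runs across the start and is not marked above. CHR letters stood 0 times in Mcm6, 1 time each in Mcm7 and Cdc20, and 2 times each in Cdk1, Mki67 and Top2a, so that single genes of the helicase and of mitosis overlapped in both counts. Of the 9 replication and nucleotide genes with a window, 6 (66.7%) held an E2F match and 3 (33.3%) a CHR match. Of the 22 genes of the other roles, 2 (9.09%) held an E2F match and 15 (68.2%) a CHR match. Among all 27457 promoters of the same length, 3.89% held E2F letters, 19.5% CHR letters and 37.7% a CCAAT box. A CCAAT box stood in 21 of the 31 windows (67.7%), and CHR and CCAAT letters together in 14 (45.2%, against 7.83% of all promoters). A match describes the letters of a window only. It is no evidence of a factor at that place.

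Along the DMPT series the genes lay lower than vehicle at the low doses and higher at the top dose. The mean over the 37 genes, on the log2 scale and relative to the vehicle mean, was -0.34 ± 0.34 (SD, n = 5), -0.54 ± 0.36 and -0.49 ± 0.29 for 1, 6 and 20 mg/kg. The higher doses, 60 and 120 mg/kg, had means of 0.23 ± 0.55 and 0.55 ± 0.25, beside a vehicle SD of 0.30. The 5 arrays of the top dose read 0.32, 0.28, 0.83, 0.57 and 0.75, and the vehicle arrays -0.51, 0.17, 0.21, -0.04 and 0.18, so that the groups did not overlap. At 6 mg/kg the arrays ran from -1.03 to -0.13 and reached into the range of the vehicle arrays. The p-toluidine series had no such dip. Its means were 0.17 ± 0.35, 0.02 ± 0.16, 0.39 ± 0.43 and 0.77 ± 0.34 for 6, 20, 60 and 120 mg/kg, and its vehicle arrays spread widely, from -0.63 to 0.51 with an SD of 0.45. Top-dose p-toluidine arrays read 0.97, 0.81, 0.55, 0.33 and 1.20, and the lowest of them lay inside the vehicle range.

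**Figure D1:**
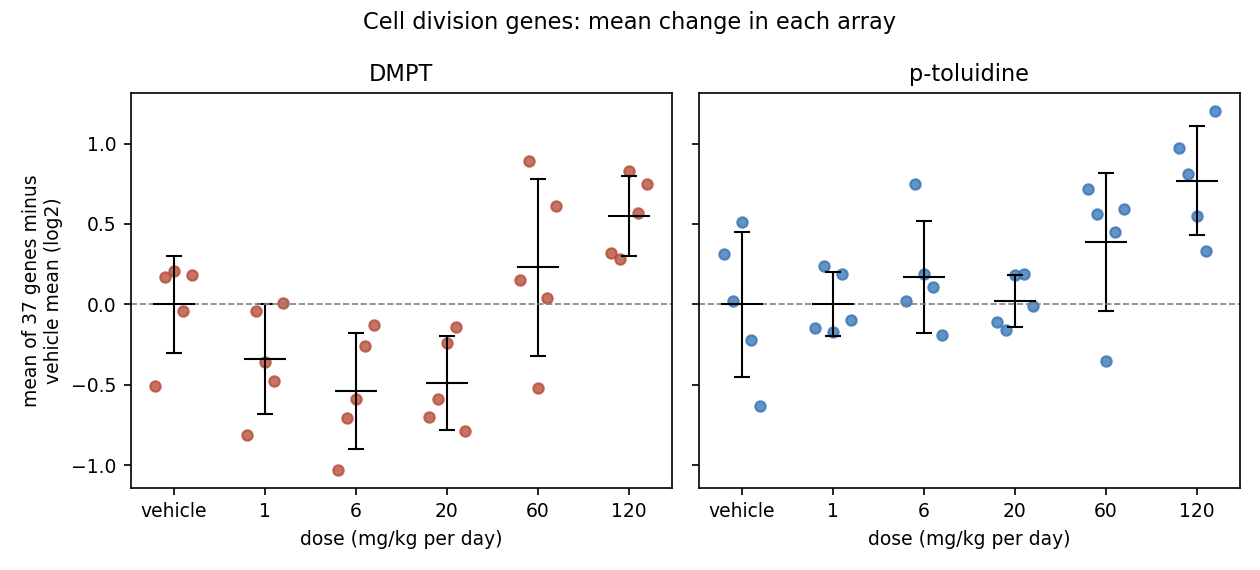
Mean over the 37 cell division genes for each of the 60 arrays, on the log2 scale relative to the vehicle mean of its chemical, plotted by dose in mg/kg per day. Points are arrays and bars are group means with SD; the DMPT arrays at 120 mg/kg all lie above the vehicle arrays, and the third p-toluidine array at 60 mg/kg lies apart at -0.35.

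Gene by gene, 25 of the 37 had their lowest DMPT group mean at 6 mg/kg and the other 12 at 20 mg/kg. This split turned on single arrays. Without array 1 at 6 mg/kg, 11 genes were lowest at 6 mg/kg and 25 at 20 mg/kg. Without array 4 at 20 mg/kg, the counts were 14 and 23. The highest group mean was at 120 mg/kg for 34 genes, for 33 without the first vehicle array and for 29 without array 3 at 60 mg/kg. For p-toluidine the lowest mean was spread over vehicle (11 genes), 1 mg/kg (11), 6 mg/kg (4) and 20 mg/kg (11), while 35 genes were highest at 120 mg/kg. The number lowest in vehicle was 26 without vehicle array 3 and 2 without vehicle array 5. The distance from lowest to highest group mean was widest for Mcm6, at 1.78 for DMPT and 1.40 for p-toluidine on the log2 scale. Mki67 spanned 1.70 and 1.33, and Top2a 1.62 and 1.15. Thymidine kinase Tk1 was among the flattest, with 0.47 and 0.43.

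**Figure D2:**
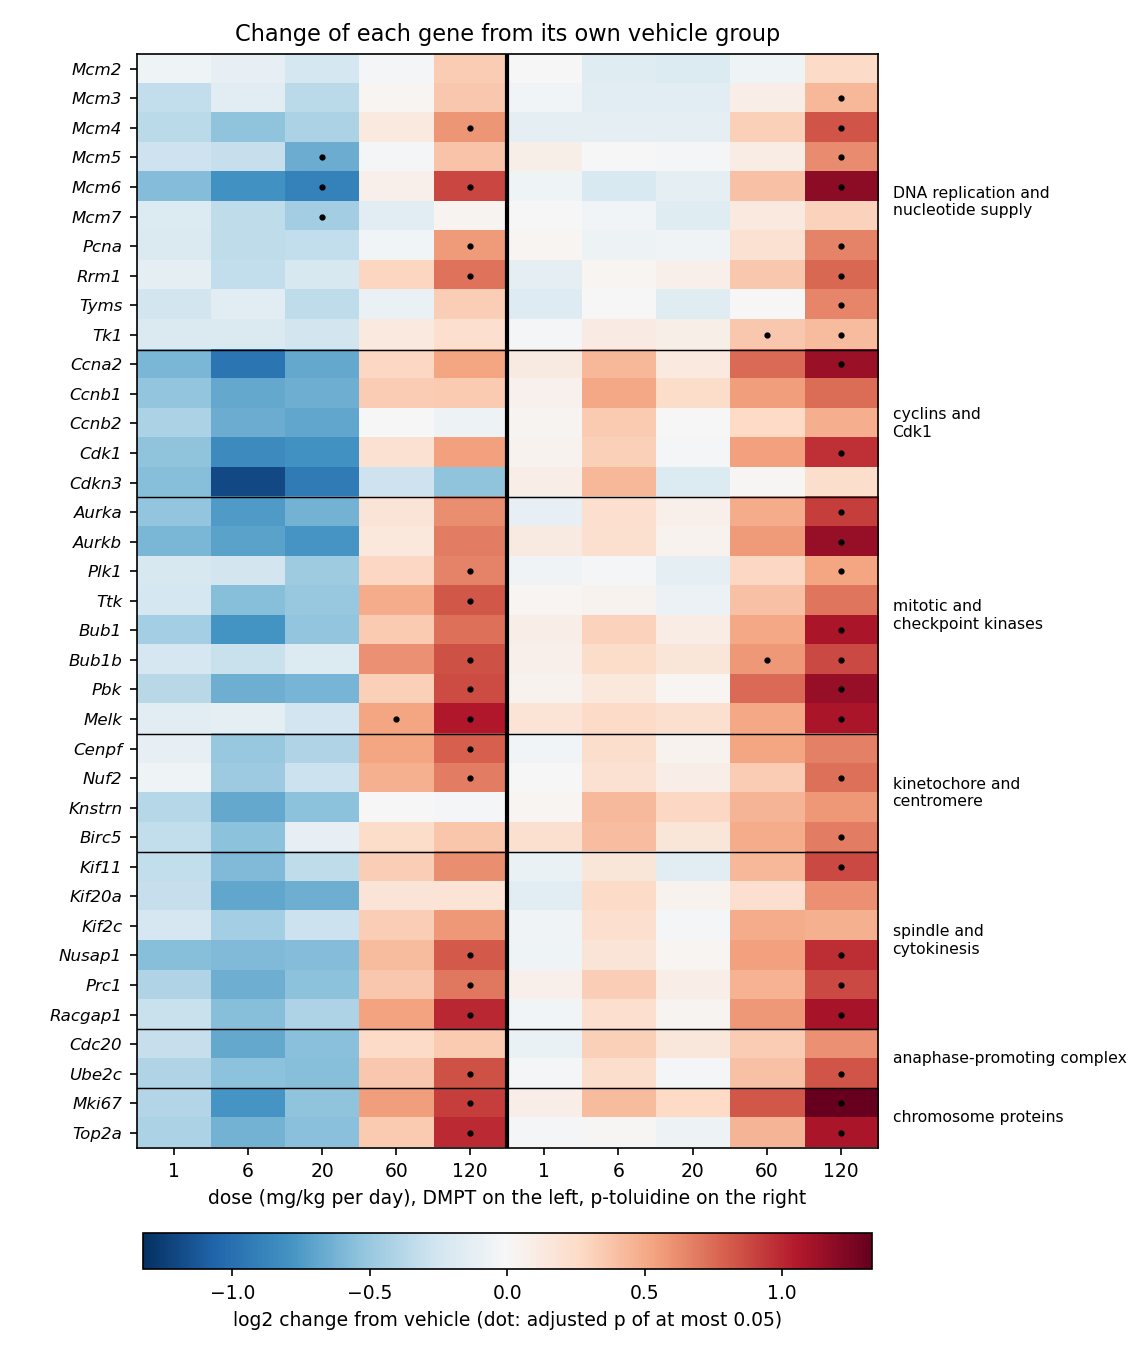
Heatmap of the 37 genes (vertical axis, ordered by role) by dose in mg/kg per day (horizontal axis, DMPT left, p-toluidine right), with colour for the change of the group mean from its vehicle on the log2 scale and dots for called changes. For DMPT all genes are on the lower side at 1, 6 and 20 mg/kg with 3 dots, and at 120 mg/kg 17 genes carry dots for DMPT and 26 for p-toluidine.

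At 1 and 6 mg/kg DMPT, none of the 37 genes passed the test. The smallest adjusted p over the set (limma, Benjamini-Hochberg) was 0.906 at 1 mg/kg, where 0% of all probe sets were called, and 0.194 at 6 mg/kg, where 0.168% were. All 37 lay below their vehicle mean at both doses and also at 20 mg/kg, with medians of -0.33, -0.57 and -0.52, while the median over all genes was near 0. The doses of a chemical share one vehicle group, so these counts are not independent of each other. The genes also rose and fell together between arrays of a group, with a median pair correlation of 0.81 for DMPT. A count of genes is therefore not a count of separate results. At 1 mg/kg 8 of the 37 had an unadjusted p under 0.05, beside 5.29% of all probe sets, and at 6 mg/kg 27 did, beside 8.75%. With single arrays left out the first count ran from 0 to 20, the latter without the first vehicle array. The count at 6 mg/kg was 31 without that array, 17 without vehicle array 2 and 12 without array 1 at 6 mg/kg. The widest differences there were those of the mitotic regulators. Cdkn3, a phosphatase that acts on cyclin-dependent kinases, stood at -1.20 ± 0.36 (SE, adjusted p = 0.223, limma), Ccna2 (cyclin A2) at -0.97 (0.381) and Cdk1 at -0.85 (0.328). Cdk1 read 5.48, 6.45, 6.40, 6.22 and 6.41 in the vehicle arrays and 4.55, 4.99, 5.31, 5.77 and 6.11 at 6 mg/kg, and the groups overlapped through the first vehicle array.

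At 20 mg/kg DMPT, 3 genes were called lower, all of them subunits of the replicative helicase, which is 8.11% of the 37 beside 1.05% of all probe sets. These were not the widest differences as a group, since the median over the 37 was -0.52 and the lowest -0.94. By role, the mean was -0.75 ± 0.43 (SD over 5 arrays) for the cyclin-Cdk1 genes and -0.42 ± 0.14 for the replication genes. Mcm5 read 4.21, 4.62, 5.19, 4.96 and 5.04 in vehicle and 4.08, 4.21, 4.19, 4.15 and 4.09 at 20 mg/kg. The dosed arrays were tight, and the highest of them lay just under the lowest vehicle array. The change was -0.66 ± 0.13 on the log2 scale (SE, 1.58-fold lower, adjusted p = 0.00417, limma). Mcm7 read 5.90, 6.11, 6.44, 6.09 and 6.24 in vehicle and 5.62, 5.67, 5.80, 5.66 and 5.69 at 20 mg/kg, again with no overlap, a change of -0.47 ± 0.10 (1.38-fold lower, adjusted p = 0.0108). These were the only genes of the set whose arrays at 20 mg/kg all lay below vehicle, 2 of 37 beside 2.68% of all probe sets. That count rests on the low first vehicle array: without it 19 genes separated (3.88% of all probe sets), and without array 4 at 20 mg/kg 5 did (3.39%). Mcm6 read 3.96, 4.37, 5.38, 4.71 and 5.03 in vehicle and 3.54, 3.54, 4.18, 4.00 and 3.70 at 20 mg/kg. Dosed arrays 3 and 4 reached into the vehicle range, and the change was -0.90 ± 0.23 (1.86-fold lower, adjusted p = 0.0291). Mcm5 and Mcm7 were called in each of the 10 fits that left out 1 array. Mcm6 was not called without vehicle array 3, 4 or 5 (adjusted p = 0.115, 0.0551 and 0.0815) or without array 1, 2 or 5 at 20 mg/kg (0.0699, 0.0806 and 0.0635), and 5 genes were called without the low first vehicle array.

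At 60 mg/kg DMPT the arrays disagreed most, from -0.52 in the third to 0.89 in the second for the mean over the set. Melk, a mitotic kinase expressed in proliferating cells, was the only gene called, 2.70% of the set beside 1.93% of all probe sets called higher. It read 2.73, 3.11, 3.18, 3.06 and 3.06 in vehicle and 3.67, 4.14, 3.11, 3.11 and 3.74 at 60 mg/kg. Dosed arrays 3 and 4 lay inside the vehicle range, and the change was 0.52 ± 0.16 (1.44-fold higher, adjusted p = 0.0440, limma). This call depended on single arrays: it was lost without any 1 of the 5 vehicle arrays or without dosed array 1, 2 or 5 (adjusted p from 0.051 to 0.149 over these 8 fits), and without the third dosed array 3 genes were called. It was also lost when the fit held only the arrays compared (adjusted p = 0.120) or after quantile normalisation (0.056).

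At 120 mg/kg DMPT, 17 of the 37 genes rose, 45.9% beside 4.27% of all probe sets called higher, and none fell, beside 5.53% called lower, with a median change over the 37 of 0.62. The arrays of 15 genes did not overlap with vehicle (3.73% of all probe sets): Pcna, Rrm1, Plk1, Bub1b, Pbk, Melk, Cenpf, Nuf2, Kif11, Nusap1, Prc1, Racgap1, Ube2c, Mki67 and Top2a. The number of called genes was sensitive to single arrays. It fell to 8 without the low first vehicle array and to 10 without vehicle array 4 or without array 3 or 5 at 120 mg/kg. Of the genes followed singly through the 10 such fits, Melk, Racgap1, Top2a, Pbk and Bub1b were called in all. Other called genes, among them Pcna, Plk1, Rrm1 and Mcm4, were not followed in this way. A variance model with an intensity trend and robust estimation called 10 genes.

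Both chromosome proteins rose. Mki67, the antigen used to stain cycling cells, read 5.17, 6.03, 6.22, 5.80 and 5.77 in vehicle and 6.44, 6.51, 7.07, 6.75 and 6.81 at 120 mg/kg DMPT. Every dosed array was above every vehicle array, and the change was 0.92 ± 0.27 (1.89-fold, adjusted p = 0.0285, limma). This call was lost without vehicle array 1 or 4 (adjusted p = 0.105 and 0.0517) or without dosed array 3, 4 or 5 (0.07, 0.0511 and 0.0572). Top2a, the topoisomerase that untangles sister chromatids, read 4.71, 5.54, 5.41, 5.05 and 5.29 in vehicle and 6.02, 6.03, 6.26, 6.36 and 6.31 at 120 mg/kg. The dosed arrays lay within a narrow band above vehicle, and the change was 0.99 ± 0.18 (1.99-fold, adjusted p = 0.000378).

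Of the 10 genes of replication and nucleotide supply, 4 rose at 120 mg/kg DMPT, with a median of 0.36 over the 10. Mcm6 had 5.58, 5.69, 5.27, 5.78 and 5.58 at this dose, close to or above its highest vehicle array of 5.38, and rose by 0.89 ± 0.23 (1.85-fold, adjusted p = 0.0111, limma). Its adjusted p was 0.0546 without the first vehicle array. Pcna read 7.32, 7.46, 7.98, 7.59 and 7.89 in vehicle and 8.20, 8.31, 8.13, 8.22 and 8.19 at 120 mg/kg, a small but separate shift of 0.56 ± 0.12 (adjusted p = 0.00179). Rrm1, the large subunit of ribonucleotide reductase, rose by 0.72 ± 0.19 (adjusted p = 0.0107) and Mcm4 by 0.59 ± 0.16 (0.0147). The other 2 helicase genes that were called lower at 20 mg/kg did not pass the test here: Mcm5 stood at 0.37 (adjusted p = 0.0700) and Mcm7 at 0.04. Mcm7 read 5.98, 6.32, 6.17, 6.18 and 6.32, inside its vehicle range.

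The mitotic and checkpoint kinases held 5 of 8 genes that rose, with a median of 0.78. Melk read 4.16, 3.85, 4.26, 3.93 and 4.26 at 120 mg/kg DMPT, clear of its highest vehicle array of 3.18, and had the largest change of the set at 1.07 ± 0.16 (2.09-fold, adjusted p = 1.96e-05, limma). Melk was dim, however, at percentile 28.0 of all genes, and its vehicle arrays lay below the array medians of 3.53 to 3.61. Pbk, a kinase active in mitosis, read 3.93, 4.68, 4.87, 4.37 and 4.82 in vehicle and 5.35, 5.35, 5.40, 5.31 and 5.56 at 120 mg/kg. The dosed arrays were alike and all higher, with a change of 0.86 ± 0.19 (1.82-fold, adjusted p = 0.00335). The spindle checkpoint kinase Bub1b rose by 0.85 ± 0.20 (1.80-fold, 0.00549) and the mitotic entry kinase Plk1 by 0.66 ± 0.14 (0.00187). For the checkpoint kinase Ttk the probe sets disagreed: the brighter one was called at 0.83 ± 0.27 (0.0457) and the other was not, at 0.48 (0.138).

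Among 4 kinetochore genes, Cenpf and Nuf2 rose. Cenpf, a large kinetochore protein, read 4.17, 4.60, 4.55, 4.47 and 4.49 in vehicle and 5.22, 4.62, 5.87, 5.13 and 5.44 at 120 mg/kg DMPT, where the second dosed array was barely above vehicle. The change was 0.80 ± 0.25 (1.74-fold, adjusted p = 0.0373, limma), and 7 of the 10 fits without 1 array lost it, namely those without vehicle array 1, 3, 4 or 5 or dosed array 1, 3 or 5 (adjusted p from 0.0538 to 0.117). Nuf2, part of the complex that holds microtubules, rose by 0.68 ± 0.21 (0.0314).

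Of 6 genes of the spindle and cytokinesis, 3 rose. Racgap1, a subunit of centralspindlin, read 4.57, 5.38, 5.31, 5.11 and 5.55 in vehicle and 5.93, 5.72, 6.56, 6.17 and 6.52 at 120 mg/kg DMPT. All dosed arrays were higher than vehicle, and the change was 1.00 ± 0.24 (2.00-fold, adjusted p = 0.00552, limma), although a dimmer second probe set at 0.50 was not called (0.117). The spindle assembly protein Nusap1 rose by 0.82 ± 0.25 (0.0315), and Prc1, which bundles microtubules of the central spindle, by 0.70 ± 0.22 (0.0418). The motor Kif11 had 0.62 (0.0589) on the probe set that stood for it, which was not called, and 0.48 (0.0333) on another, which was.

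None of the 5 cyclin-Cdk1 genes passed the test at 120 mg/kg DMPT. Cdk1 read 6.31, 6.52, 7.06, 6.85 and 6.96, overlapping its vehicle arrays, with a difference of 0.55 ± 0.30 (adjusted p = 0.294, limma). Cyclin A2 (Ccna2) stood at 0.53 (0.449), and the B cyclins Ccnb1 and Ccnb2 at 0.35 and -0.07. Cdkn3 ran the other way, at -0.54 ± 0.36 (0.421): it read 5.69, 6.80, 6.37, 6.24 and 6.47 in vehicle, 4.12, 4.78, 5.10, 5.56 and 6.03 at 6 mg/kg, and 5.26, 5.20, 6.29, 5.90 and 6.23 at 120 mg/kg. Its highest DMPT group was the vehicle, whereas most of the set peaked at 120 mg/kg. Among the genes of the anaphase-promoting complex, Ube2c, its ubiquitin-conjugating enzyme, read 5.41, 6.45, 6.05, 5.91 and 6.07 in vehicle and 6.46, 6.46, 7.16, 6.92 and 7.10 at 120 mg/kg. The groups just missed each other, and the change was 0.84 ± 0.25 (1.79-fold, 0.0279), a call lost without vehicle array 1 or 4 or dosed array 3, 4 or 5 (adjusted p from 0.0546 to 0.103). Cdc20, the complex's mitotic activator, stood at 0.35, and none of its 5 probe sets was called.

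**Figure D3:**
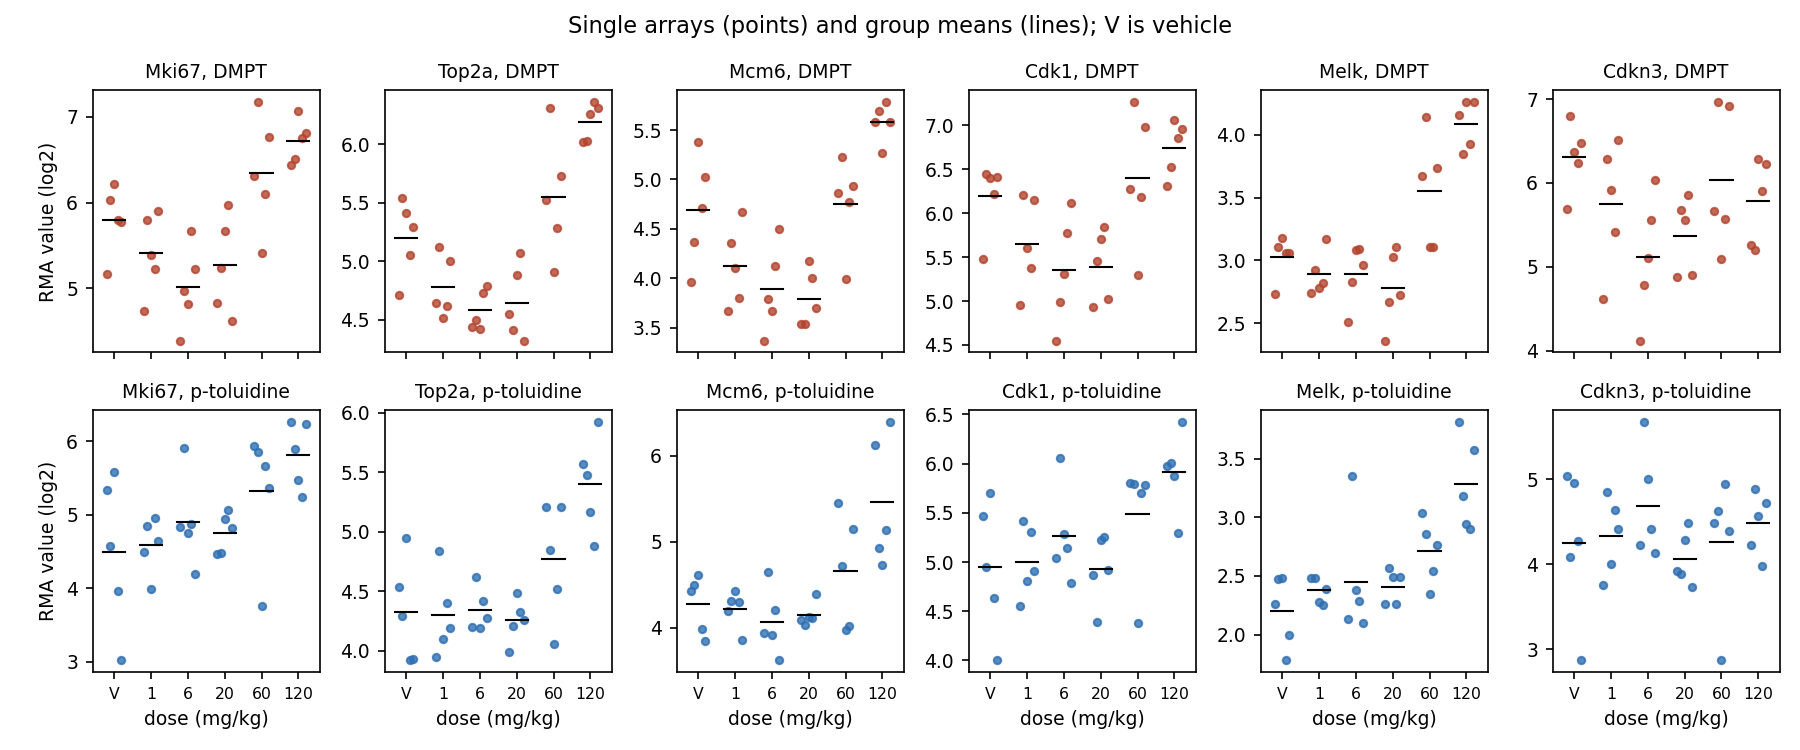
Log2 value of Mki67, Top2a, Mcm6, Cdk1, Melk and Cdkn3 in each array by dose in mg/kg per day, with DMPT in the upper and p-toluidine in the lower panels; points are arrays, lines are group means and V is vehicle. Top2a and Melk at 120 mg/kg DMPT lie wholly above vehicle, Cdk1 overlaps it, and Cdkn3 is highest in the DMPT vehicle group.

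Against 6 mg/kg, where most of these genes were lowest, 31 of the 37 were higher at 120 mg/kg DMPT, 83.8% beside 3.41% of all probe sets called higher. The median difference was 1.14, and the arrays of 28 genes did not overlap (2.82% of all probe sets). Top2a read 4.44, 4.50, 4.42, 4.73 and 4.79 at 6 mg/kg, a gap of 1.62 ± 0.18 to the top dose (3.07-fold, adjusted p = 6.12e-07, limma). Mki67 read 4.39, 4.97, 4.82, 5.67 and 5.22 at 6 mg/kg, all below the arrays at 120 mg/kg, with a difference of 1.70 ± 0.27 (3.25-fold, 0.000129), and Mcm6 differed by 1.69 ± 0.23 (3.22-fold, 1.27e-05). The 6 that did not pass were Mcm3, Tk1, Ccnb2, Cdkn3, Knstrn and Kif20a. This comparison takes the same arrays at 120 mg/kg as the one with vehicle. It also starts from the dose where most means were lowest, which turned on array 1 at 6 mg/kg. A linear trend over the 6 dose groups in order called 25 genes upward, 67.6% beside 6.89%, and 21 without the first vehicle array. The slope was 0.22 ± 0.05 per dose step for Mki67 (adjusted p = 0.000961, limma), 0.22 ± 0.04 for Racgap1 (0.000207) and 0.21 ± 0.03 for Top2a (8.52e-06). The group means did not rise step by step. Over the set they were -0.34, -0.54 and -0.49 at 1, 6 and 20 mg/kg, and 0.23 and 0.55 at 60 and 120 mg/kg.

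For p-toluidine, no gene of the set passed the test at 1, 6 or 20 mg/kg, where 0, 0 and 0.786% of all probe sets were called, and 0, 1 and 0 of the 37 had an unadjusted p under 0.05, beside 6.42, 8.24 and 11% of all probe sets. With single arrays left out, the count at 6 mg/kg ran from 0 to 6. Medians were -0.00, 0.22 and 0.02. The first ran from -0.171 to 0.126 and the last from -0.135 to 0.164 as single arrays were left out, the ends being those without vehicle array 5 or 3. Mcm7 was the only gene whose arrays at 20 mg/kg all lay below vehicle (1.2% of all probe sets): it read 5.32, 5.38, 5.40, 5.32 and 5.36 in vehicle and 5.27, 5.12, 5.09, 5.30 and 5.17 at 20 mg/kg, and it was not called. At 60 mg/kg, 2 genes rose, 5.41% beside 2.12% of all probe sets called higher. Tk1, which salvages thymidine, read 5.47, 5.32, 5.54, 5.09 and 5.11 in vehicle and 5.89, 5.63, 5.42, 5.60 and 5.78 at 60 mg/kg, with only the third dosed array inside the vehicle range. It rose by 0.36 ± 0.10 (1.28-fold, adjusted p = 0.0363, limma). Bub1b read 2.92, 2.39, 2.99, 2.28 and 1.87 in vehicle and 3.47, 3.10, 2.61, 3.06 and 3.07 at 60 mg/kg, again with only the third dosed array overlapping, and rose by 0.57 ± 0.17 (1.49-fold, 0.0434). Without that array, which was low across the set, 9 genes were called. Without vehicle array 2, 4 or 5, or dosed array 1, 4 or 5, 0 were, and without the second dosed array only Tk1 was. The adjusted p ran from 0.0689 to 0.152 for Bub1b and from 0.0533 to 0.134 for Tk1 in the fits that lost the call. Neither was called when the fit held only the arrays compared (0.178 for Bub1b and 0.114 for Tk1) or with the replicate number as a block (0.0572 and 0.0573).

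At 120 mg/kg p-toluidine, 26 of the 37 genes rose, 70.3% beside 5.68% of all probe sets called higher, and none fell, beside 5.07% called lower. All 37 lay above their vehicle mean with a median of 0.74. The arrays of 8 genes did not overlap with vehicle (4.4% of all probe sets): Mcm5, Mcm6, Tyms, Tk1, Aurkb, Bub1b, Melk and Racgap1. This count was 17 without vehicle array 3 (5.42% of all probe sets) and 19 without array 4 at 120 mg/kg (5.1%). Mcm6 read 4.43, 4.50, 4.61, 3.99 and 3.85 in vehicle and 6.12, 4.93, 4.73, 5.14 and 6.39 at 120 mg/kg. Dosed arrays 1 and 5 were far above the rest, and the change was 1.19 ± 0.27 (2.28-fold, adjusted p = 0.00250, limma). Aurkb, the kinase of the chromosomal passenger complex, read 3.96, 3.65, 4.14, 3.37 and 3.18 in vehicle and 5.15, 4.77, 4.53, 4.35 and 5.28 at 120 mg/kg, with no overlap and a change of 1.16 ± 0.23 (2.23-fold, 0.000574). Without the fifth array at 120 mg/kg, the highest over the set, 17 genes were called.

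Mki67 read 5.34, 4.58, 5.58, 3.96 and 3.02 in the p-toluidine vehicle arrays and 6.26, 5.89, 5.48, 5.24 and 6.23 at 120 mg/kg. It had the largest change of the set, 1.33 ± 0.38 (2.51-fold, adjusted p = 0.0184, limma), on a vehicle group spread over more than 2 log2 units. That call was lost without vehicle array 4 or 5 (adjusted p = 0.0621 and 0.0818) or dosed array 1 or 5 (0.0539 and 0.0531). Cyclin A2 (Ccna2) read 4.92, 4.39, 5.52, 4.27 and 3.15 in vehicle and 5.65, 5.65, 5.48, 4.80 and 6.41 at 120 mg/kg. The groups overlapped, and it rose by 1.15 ± 0.33 (0.0182), which was lost without the fifth vehicle array (0.0813) or the fifth dosed array (0.0756). The checkpoint kinase Bub1 rose by 1.08 ± 0.31 (2.12-fold, 0.0180), a call lost without vehicle array 4 or 5 or the fifth dosed array (0.0528, 0.0793 and 0.0518).

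Pbk rose by 1.15 ± 0.29 at 120 mg/kg p-toluidine (2.23-fold, adjusted p = 0.00667, limma), Racgap1 by 1.09 ± 0.23 (2.13-fold, 0.00121), Melk by 1.08 ± 0.18 (2.12-fold, 0.000115) and Top2a by 1.08 ± 0.20 (2.11-fold, 0.000442). Melk was separate in every array, with 2.26, 2.47, 2.48, 1.78 and 2.00 in vehicle and 3.81, 3.18, 2.94, 2.90 and 3.57 at 120 mg/kg. It was dim for this chemical too, at percentile 30.3 of all genes. Mcm5, which was lower at 20 mg/kg DMPT, rose here by 0.62 ± 0.11 (1.54-fold, 0.000238): it read 4.14, 4.21, 4.16, 3.76 and 4.20 in vehicle and 4.94, 4.67, 4.46, 4.53 and 4.98 at the top dose. Cdk1 rose by 0.96 ± 0.28 (1.95-fold, 0.0220). The 11 genes that did not pass were Ccnb1, Ccnb2, Cdkn3, Ttk, Cenpf, Knstrn, Kif20a, Kif2c, Cdc20, Mcm2 and Mcm7, with differences from 0.23 for Cdkn3 to 0.74 for Ccnb1. By role, 8 of 10 replication genes, 2 of 5 cyclin-Cdk1 genes, 7 of 8 kinases, 2 of 4 kinetochore genes, 4 of 6 spindle genes, 1 of 2 genes of the anaphase-promoting complex and both chromosome proteins rose.

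Against 6 mg/kg p-toluidine, 16 genes were higher at 120 mg/kg, 43.2% beside 4.21% of all probe sets called higher, and 5 of the 37 did not overlap (4.01%): Mcm4, Mcm5, Mcm6, Pcna and Top2a. The latter count was 22 without array 2 at 6 mg/kg (5.03% of all probe sets) and 11 without array 4 at 120 mg/kg (4.75%). Mcm6 differed by 1.40 ± 0.27 (2.63-fold, adjusted p = 0.000657, limma), Top2a by 1.06 ± 0.20 (2.09-fold, 0.000760) and Pbk by 1.01 ± 0.29 (2.02-fold, 0.0261). Without the first array at 120 mg/kg 10 genes were called, and the call of Pbk was lost without array 1 or 5 at 6 mg/kg (0.0611 and 0.0915) or array 1 or 5 at 120 mg/kg (0.0927 and 0.0958). The linear trend over p-toluidine doses called 30 genes upward, 81.1% beside 7.78%, and 32 without the third array at 60 mg/kg. Its slope was 0.25 ± 0.06 per dose step for Mki67 (0.00637), 0.22 ± 0.05 for Pbk (0.00144) and 0.21 ± 0.04 for Mcm6 (0.00109).

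The chemicals have separate vehicle groups, so their responses can be set side by side. At 120 mg/kg, 15 genes were called for both, 88.2% of the 17 called for DMPT and 57.7% of the 26 called for p-toluidine. The same overlap was not counted over all probe sets, so these shares cannot be read as particular to the set. Cenpf and Ttk were called for DMPT alone, and Aurka, Aurkb, Birc5, Bub1, Ccna2, Cdk1, Kif11, Mcm3, Mcm5, Tk1 and Tyms for p-toluidine alone. A call for one chemical and not for the other is no test of a difference. The difference of the responses was therefore tested at the 5 matched doses, 185 comparisons in all, and none passed after adjustment over all probe sets (limma, Benjamini-Hochberg). The smallest adjusted p was 0.717, 0.536, 0.257, 0.999 and 0.841 from 1 to 120 mg/kg, and over all probe sets 0, 0, 0, 0 and 2 were called, the last being 0.00644%. DMPT minus p-toluidine, the median difference was -0.32, -0.74, -0.49, -0.13 and -0.25. At 6 mg/kg 22 of the 37 had an unadjusted p under 0.05, beside 6.04% of all probe sets, at 20 mg/kg 4 did, beside 7.34%, and at the other doses 0. With single arrays left out, these counts ran from 9, without p-toluidine vehicle array 5, to 27, without the first DMPT vehicle array, at 6 mg/kg, and from 1 to 15 at 20 mg/kg. The 37 genes moved together between arrays, so these are not counts of separate results. The median difference at 60 mg/kg was 0.0462 without the third DMPT array of that dose and 0.00294 without p-toluidine vehicle array 5.

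The widest gap was at 6 mg/kg, where Cdkn3 differed by -1.64 (95% interval -2.69 to -0.59, adjusted p = 0.612, limma) and Ccna2 by -1.42 (-2.46 to -0.38). The smallest adjusted p belonged to Mcm5 at 20 mg/kg, with -0.63 (-0.99 to -0.27, 0.257). All 37 intervals held 0 at the top dose, but only 23 of them lay within 1 log2 unit on either side of it. For Melk the interval was -0.53 to 0.49 and for Top2a -0.66 to 0.49, each within 1 log2 unit of 0, whereas for Mki67 it was -1.39 to 0.58 and for Cdkn3 -1.82 to 0.28. These intervals do not show that the chemicals act alike on any of these genes. A margin of 1 log2 unit is about as large as the changes of Melk and Top2a themselves, and likeness was not tested.

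**Figure D4:**
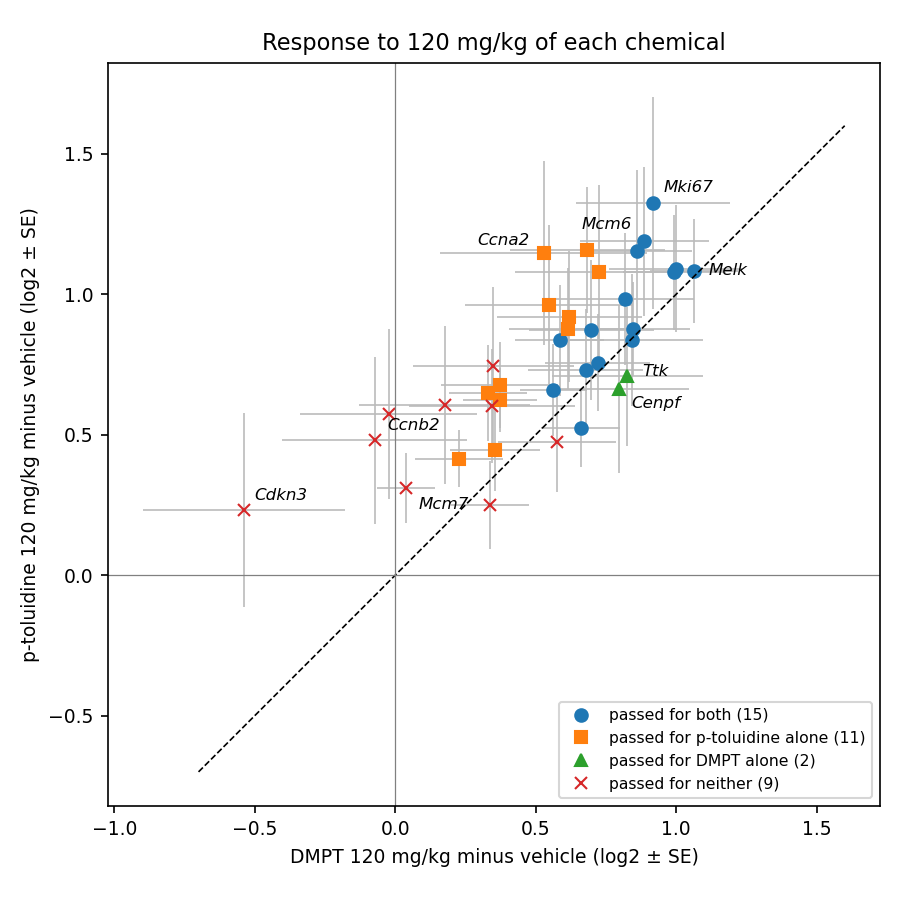
Change of each of the 37 genes at 120 mg/kg against vehicle on the log2 scale, DMPT on the horizontal and p-toluidine on the vertical axis, with SE bars and with marks for the chemical in which the gene was called. Of these genes, 15 were called for both and 9 for neither, and Cdkn3 lies farthest left at -0.54 for DMPT.

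By role, the mean difference at 6 mg/kg DMPT, where no gene was called, was -0.32 ± 0.19 (SD over 5 arrays) for replication genes, -0.52 ± 0.37 for kinases and -0.87 ± 0.61 for the cyclin-Cdk1 genes. At 120 mg/kg DMPT the mean over the cyclin-Cdk1 genes was 0.16 ± 0.45, over the replication genes 0.44 ± 0.06, and over Mki67 and Top2a 0.96 ± 0.20. Medians over genes, 0.35 and 0.36, hardly set the cyclin-Cdk1 and replication genes apart, and the mean of the former includes Cdkn3 at -0.54. For p-toluidine at this dose the replication genes averaged 0.61 ± 0.41, the cyclin-Cdk1 genes 0.71 ± 0.41 and the chromosome proteins 1.20 ± 0.42, so that the cyclin-Cdk1 genes stood below the replication genes for DMPT but not for p-toluidine. The mean of the replication genes had the smallest SD across DMPT arrays at the top dose, but not across p-toluidine arrays. It averages 10 genes, more than any other role, and such an SD depends on that number. The difference between roles was not tested.

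**Figure D5:**
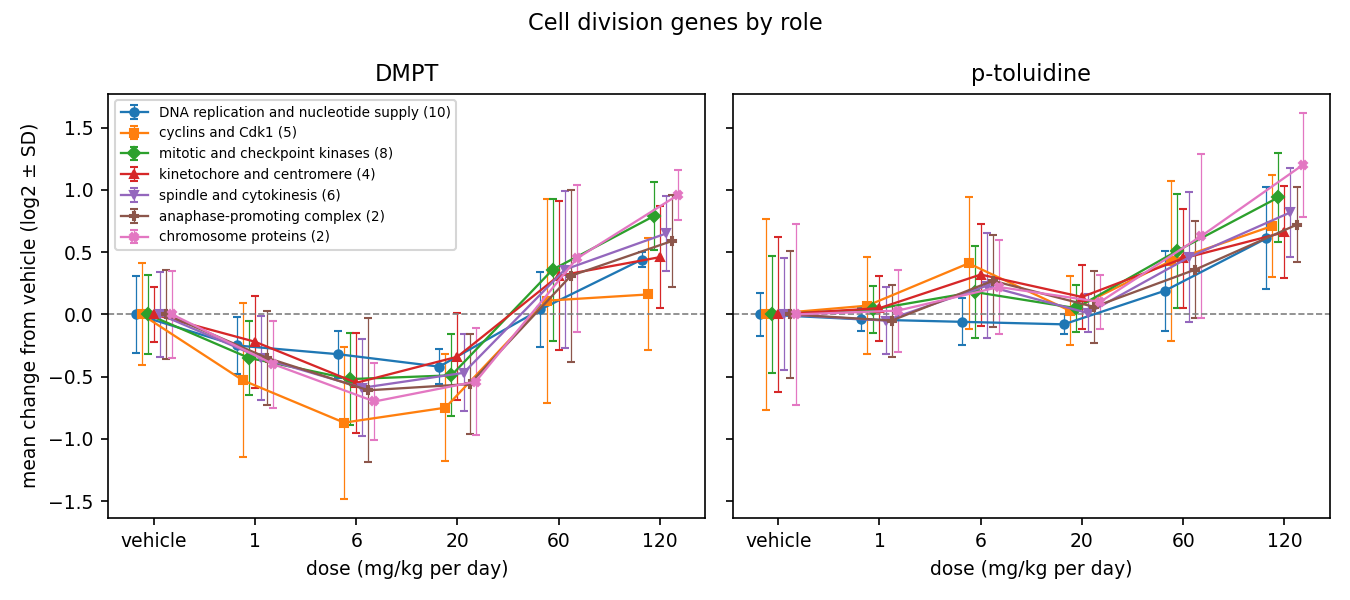
Mean change on the log2 scale over the genes of each role by dose in mg/kg per day, for DMPT and p-toluidine, relative to the vehicle mean of the chemical, with bars for the SD over 5 arrays. For DMPT the cyclin-Cdk1 genes reach -0.87 at 6 mg/kg and 0.16 at 120 mg/kg, and the chromosome proteins 0.96 at 120 mg/kg.

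Between arrays of one group these genes varied more than most. Their median SD within groups was 0.394 on the log2 scale for DMPT and 0.396 for p-toluidine, beside 0.144 and 0.146 over all genes. Once group means were removed, their deviations rose and fell together: the median correlation over 666 gene pairs and 30 arrays was 0.81 for DMPT and 0.75 for p-toluidine, and a single component held 86.0% and 79.1% of their variance. These points share arrays and normalisation, so the values are descriptive. Bub1 was most like the mean of the other genes for DMPT (correlation 0.98) and Prc1 for p-toluidine (0.97). Mcm2 was least like it in both (0.49 and 0.37). Arrays of the same dose thus differed from each other mainly in how high the whole set was.

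The wider pathway was described with lists of other genes, whose counts are to be read against the 4.27% higher and 5.53% lower of all probe sets at 120 mg/kg DMPT and the 5.68% and 5.07% with p-toluidine. Of 44 further mitosis genes, 12 rose at 120 mg/kg DMPT and 31 at p-toluidine, with medians of 0.53 and 0.68 and none lower. Spc25, a partner of Nuf2 in the Ndc80 complex, rose by 0.83 (adjusted p = 0.0387, limma) and 1.21 (0.00473), and the mitotic motor Kif15 by 0.91 (0.00458) and 0.65 (0.0109). Of 34 other genes of origin licensing and the replication fork, 10 and 19 rose, with medians of 0.29 and 0.33. The chromatin factor Uhrf1 rose by 0.93 ± 0.21 (0.00276) and 1.15 (0.000847), the flap nuclease Fen1 by 0.65 (0.000357) and 0.65 (0.00188), the helicase cofactor Gins1 by 0.64 (0.00143) and 0.95 (0.000275), and the licensing inhibitor Gmnn by 0.65 (0.00207) and 0.50 (0.0230). One gene of this list, Orc4, fell for both, by 0.28 (0.00656) and by 0.34 (0.00449); it was named after its values were seen.

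Regulators upstream of S phase were counted in the same way. Of 25 G1 regulators, 3 rose and 1 fell with DMPT and 4 rose and 2 fell with p-toluidine. Cyclin D1 (Ccnd1), which starts G1 progression, fell by 1.51 ± 0.19 on the log2 scale at 120 mg/kg DMPT (adjusted p = 1.99e-06, limma) and fell by 1.08 ± 0.17 with p-toluidine (4.08e-05). It was already lower at 20 mg/kg, at -0.81 (0.0159) and -0.80 (0.0167). Rb1, the retinoblastoma protein, fell with p-toluidine alone, by 0.42 (0.0328). The E2F family repressor E2f8 rose by 0.86 (0.000291) and 0.87 (0.000117). Rbl1 at 0.58 (0.0200) and cyclin E2 (Ccne2) at 0.55 (0.0192) rose with DMPT, and the S phase activators E2f1 at 0.53 (0.0135) and E2f2 at 0.41 (0.00569) with Lin9 at 0.50 (0.00787) rose with p-toluidine. Of 14 inhibitors and checkpoint genes, 3 rose and 1 fell with DMPT and 5 rose with p-toluidine, among them the mitotic entry inhibitor Wee1 at 0.64 (0.00582) and 0.83 (0.000358), Ccng1, a p53 target, at 0.39 (0.0218) and 0.77 (1.75e-05), and the Cdk4 and Cdk6 inhibitor Cdkn2c at 0.46 (0.0262) and 0.63 (0.00111). The gene of this list that fell with DMPT was the Cdk inhibitor Cdkn1c, by 0.31 (0.0449), and Cdkn1a and Tob1 were the others that rose with p-toluidine, the latter by 0.42 (0.00894). Rb1, E2f1, E2f2, Lin9, Cdkn1c, Cdkn1a and Tob1 were named after their values were seen.

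Of 16 growth factors and receptors of liver regeneration, none rose, and 3 fell with DMPT and 2 with p-toluidine. Inhba, which encodes a subunit of activin, a growth inhibitor for hepatocytes, fell by 1.50 ± 0.15 (adjusted p = 3.32e-08, limma) and by 1.73 ± 0.21 (4.85e-07). Egf fell by 0.54 (0.00259) and by 0.99 (6.94e-05), and Wnt2 fell by 0.31 with DMPT (0.0490). At the low DMPT doses these lists held few calls. The median of the 44 mitosis genes was -0.42 at 6 mg/kg and -0.39 at 20 mg/kg, and none of them was called. The Cdk inhibitor Cdkn1a (p21) was lower at 6 mg/kg, at -0.76 ± 0.15 (0.0260), and at 20 mg/kg, at -0.62 (0.0211). Mybl1, a Myb family factor chosen after its values were seen, was lower at both doses too, at -0.92 (0.0426) and -0.89 (0.0110). Cdkn1a stood at 0.15 at 120 mg/kg DMPT, not called, and 0.70 at 120 mg/kg p-toluidine (0.0417).

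Markers of other cells of the liver were measured in the same arrays, since dividing cells of any type would add to these transcripts. At 120 mg/kg, 2 of 11 erythroid markers rose with each chemical, namely Ahsp by 0.64 (adjusted p = 0.000935, limma) and 0.57 (0.00233), Hemgn with DMPT and Slc4a1 with p-toluidine. The mean log2 level of that list per array ran from 2.91 to 3.2 in DMPT vehicle and 3.01 to 3.37 at the top dose, and from 2.29 to 2.48 and 2.52 to 2.91 for p-toluidine. Of 9 cholangiocyte markers, 2 rose with DMPT and 3 with p-toluidine, led by Epcam at 1.47 and 1.84, and the list's level moved from 3.2 to 3.37 in vehicle to 3.44 to 3.68 at DMPT 120 mg/kg and from 2.50 to 2.67 to 2.83 to 2.98 for p-toluidine. Lymphocyte markers rose in 2 of 12 cases with DMPT (Jchain and Cd3d) and 0 with p-toluidine, and the list's level ran from 2.70 to 2.90 in DMPT vehicle and 2.86 to 2.96 at the top dose, and from 2.04 to 2.22 and 2.07 to 2.29 for p-toluidine. Of 11 Kupffer cell markers, Cd14 rose with DMPT and Cd5l and Lyz2 fell with p-toluidine, with list levels of 6.75 to 7.25 and 7.01 to 7.40 for DMPT and of 6.53 to 6.65 and 6.36 to 6.46 for p-toluidine. Of 12 stellate cell markers, 1 rose and 2 fell with DMPT and 3 fell with p-toluidine, Pdgfrb by 0.72 with each. None of 10 endothelial or 7 neutrophil markers was called with either chemical. The neutrophil list was dim, at median percentiles of 17.13 (DMPT) and 13.5 (p-toluidine) of all genes. The endothelial list was not dim (70.63 and 71.52). Lymphocyte (20.73 and 21.37) and cholangiocyte lists (23.83 and 24.36) were dim too, as was the erythroid list (20.06 for DMPT). In dim lists, missing calls and small shifts cannot show whether the number of these cells changed.

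Hepatocyte markers fell in 3 of 9 cases with DMPT (Hnf4a, Asgr1 and Serpina1) and in 1 of 9 with p-toluidine (Asgr1). Their mean log2 level ran from 11.86 to 11.94 in DMPT vehicle and 11.75 to 11.82 at 120 mg/kg, and from 11.60 to 11.68 and 11.46 to 11.57 for p-toluidine. The signal of the 3′ beta-actin control minus its 5′ control, a measure of RNA integrity, was 1.48 ± 0.15 (SD, n = 5) in DMPT vehicle and 1.28 ± 0.08 at 120 mg/kg, and 1.80 ± 0.15 and 1.52 ± 0.09 for p-toluidine. The part of these markers and of RNA integrity in the change of the cell division genes was not tested.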

How the data were processed

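Liver RNA of 60 rat samples was measured on 1-colour Affymetrix arrays, 5 per group. The authors deposited 1 table of expression values for 31099 probe sets. RMA is named, with no version, per the submitters' processing notes; the log2 scale of the deposited values was inferred from their range, and array medians that differ between the chemicals point to separate normalisation. Genes were named from GEO's platform annotation: 20826 probe sets had 1 symbol, 436 several and 9780 none. After 57 control probe sets were left out, 31042 were fitted with limma 3.58.1 in R 4.3.3, a mean per dose group over the 30 arrays of a chemical (all 60 for differences between chemicals), with no added filter or normalisation. Calls used Benjamini-Hochberg adjusted p at most 0.05. Precision is limited by 5 arrays a group. The design text names ORIOGEN, which was not run here.

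The genes and lists were chosen with earlier results of these data known. Full statistics were given for the 8 largest called changes at 60 and 120 mg/kg, up to 3 in other comparisons, the largest of each role, genes whose probe sets disagree in call, and up to 4 genes of each other list. The script was tested on simulated data. No pairing by replicate number was seen over all probe sets. After group means were removed, same-numbered arrays of different doses correlated from -0.39 to 0.42 for DMPT and -0.33 to 0.37 for p-toluidine. Of 75 such pairs for each chemical, 13 and 15 were over 0.1. Over the 37 genes alone, 39 and 32 of 75 were over 0.1. There the median for DMPT was 0.14, beside -0.02 for arrays of different numbers. DMPT arrays numbered 1 averaged -0.43 over the 6 groups and the other numbers -0.11 to 0.10. The labels do not say what a number stands for, and a link by number in these genes was not tested. No arrays were identical. Alternatives covered the arrays fitted, variance model, quantile normalisation, a filter on dim probe sets, averaged probe sets, a replicate block and each array left out.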

Additional observations from a re-analysis of the deposited data

Results flagged for a closer look

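Of 204 groups of 5 arrays tested (the named genes and the mean over the set), 12 had 1 array far from the other 4, and chance gives about 1 in 20. The third p-toluidine array at 60 mg/kg gave 4 gene values of this kind and the mean over the set, which was -0.35 there against 0.45 to 0.72 in the others: Ccna2 read 3.96 (others 5.36 to 5.60), Cdk1 4.38 (5.70 to 5.80), Bub1 2.70 (4.31 to 4.67) and Mki67 3.76 (5.36 to 5.94). The first DMPT vehicle array gave another 4: Tk1 read 5.93 (others 6.29 to 6.38), Cdk1 5.48 (6.22 to 6.45), Bub1b 2.80 (3.31 to 3.51) and Melk 2.73 (3.06 to 3.18). The remaining 3 were in p-toluidine groups: Mcm5 read 3.76 in the fourth vehicle array (others 4.14 to 4.21), Mcm6 read 4.39 in the fifth array at 20 mg/kg (4.03 to 4.13), and Melk read 3.35 in the second array at 6 mg/kg (2.10 to 2.38).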

How the results depend on the processing

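No named change reversed. Medians near 0 did change sign without 1 array: 1 mg/kg p-toluidine (-0.171 to 0.126), 20 mg/kg p-toluidine (-0.135 to 0.164) and the difference of responses at 60 mg/kg (-0.312 to 0.0462). The median at 1 mg/kg p-toluidine, -0.0031, was also 0.00951 with quantile normalization and 0.0185 with all probe sets of a gene averaged. Leaving out single arrays, the number of the 37 genes called ran from 2 to 5 at 20 mg/kg DMPT, 0 to 3 at 60 mg/kg, 8 to 17 at 120 mg/kg, 26 to 32 for 120 against 6 mg/kg and 21 to 29 for the trend. For p-toluidine it ran from 0 to 9 at 60 mg/kg, 17 to 30 at 120 mg/kg, 10 to 19 for 120 against 6 mg/kg and 26 to 32 for the trend. In every other comparison it was 0. With only the arrays compared in the fit, 5 genes were called at 20 mg/kg DMPT, 0 at 60 mg/kg DMPT and 0 at 60 mg/kg p-toluidine. Quantile normalisation gave 0 at 60 mg/kg DMPT and 1 at 60 mg/kg p-toluidine, and the variance model with trend and robust gave 10 at 120 mg/kg DMPT. The cause of these changes was not tested. The filter on dim probe sets gave 0 at 60 mg/kg DMPT. It dropped probe sets with a mean below the median probe set. Melk, the only gene called at that dose, stood at percentile 28.0 of all genes and was dropped, so its call was not tested again. The other 116 counts stayed within 1.5 times, the 124 medians moved by less than 1 SD, and 211 of 226 named changes kept their call while 15 lost it. With the replicate number as a block, 4, 1 and 19 genes were called at 20, 60 and 120 mg/kg DMPT, and 0 and 26 at 60 and 120 mg/kg p-toluidine, although the numbers share no stated pairing. Without 5 DMPT arrays of narrow spread (interquartile range under 3.2, chosen after seeing the data), 14 genes were called at 120 mg/kg. Leaving out single arrays for unadjusted counts, non-overlap and the order of dose groups was also chosen after seeing the data.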
